A study of Mus musculus with 19 samples.

Results

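The sequences described here are 2342 T cell receptor beta CDR3s that recurred in lymph nodes after immunisation with a heart antigen and were not listed after adjuvant alone. A CDR3 entered the set when it was listed in at least 3 of the 5 antigen nodes (2 myosin, 3 heart extract) and in none of the 4 adjuvant nodes. The set holds 0.216% of the 1082330 distinct CDR3 amino acid sequences in the series. It makes up 17.2% of the 13630 CDR3s found in at least 3 antigen nodes. The rule used presence in the axillary nodes, so presence, absence and read levels there are descriptions. The 1 contrast fitted among them, heart extract against myosin, is given with that limit. The mediastinal nodes and the hearts had no part in the rule.

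The study compared CD4+ TCRβ+ T cells of wild-type BALB/c mice in 19 libraries, all collected on day 7. Mediastinal nodes, which drain the heart, came from mice with a ligated left anterior descending coronary artery (myocardial infarction, MI; n = 3) or a sham thoracotomy (n = 4), and 3 libraries came from infarcted hearts. Axillary nodes came from mice given Titermax Gold adjuvant alone (n = 4), adjuvant with 100 µg of porcine cardiac myosin (n = 2) or adjuvant with 1 mg of mouse heart extract (n = 3), under the skin. Both antigens were given in 200 or 600 µl of adjuvant, not assigned to libraries, and the adjuvant control received 200 µl. Volume and antigen therefore cannot be told apart. All mice were immunised or operated. The labels do not say whether a library is 1 animal, and the spread that p-values measure may be technical.

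A T cell receptor beta chain is assembled from a V, a D and a J segment, of which the tables name V (TRBV) and J (TRBJ). The join, or CDR3, is the loop that touches the peptide held by an MHC molecule. Each clone keeps its own chain, and a CDR3 that needs few added bases can arise independently in many mice, which makes it public. A CDR3 amino acid sequence can be built on several V segments, so the same letters in different nodes need not be the same receptor. The beta chain is also only one chain of the receptor, and no alpha chain was read.

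Libraries held 500000 sorted cells for nodes and 5000 for hearts. Read totals ran from 7534295 to 9235800 in nodes and from 2426715 to 5126910 in hearts, or 15.1 to 18.5 reads per sorted cell in nodes and 485 to 1030 in hearts. The number of distinct CDR3s varied more: 38437 to 97629 in antigen nodes, 45229 to 93022 in adjuvant nodes, 140864 to 230684 in MI nodes and 52869 to 212131 in sham nodes. The lowest count listed anywhere was 2 reads, and a CDR3 that is not listed may still have had a read. Only TRB transcripts were amplified, so the sorted cell type could not be checked against other marker genes.

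The CDR3s on which the results turn are shown first, as listed, without the conserved residues that close the loop at each end. Each is named by its main V and J, the segments with most of its reads in the antigen nodes. The first 10 have the highest mean read share among the members found in all 5 antigen nodes.
TRBV19 TRBJ1-4: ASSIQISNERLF
TRBV5 TRBJ1-4: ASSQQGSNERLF
TRBV14 TRBJ1-4: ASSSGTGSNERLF
TRBV2 TRBJ2-1: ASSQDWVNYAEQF
TRBV5 TRBJ1-1: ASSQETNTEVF
TRBV5 TRBJ2-7: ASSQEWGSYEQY
TRBV5 TRBJ1-1: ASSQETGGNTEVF
TRBV19 TRBJ1-1: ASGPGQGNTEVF
TRBV19 TRBJ2-3: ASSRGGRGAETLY
TRBV1 TRBJ2-5: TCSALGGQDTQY

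The next 4 were listed in all 3 heart extract nodes and in neither myosin node.
TRBV14 TRBJ2-5: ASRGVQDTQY
TRBV19 TRBJ1-2: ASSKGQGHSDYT
TRBV19 TRBJ2-2: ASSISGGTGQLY
TRBV19 TRBJ2-2: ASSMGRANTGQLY

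These 4 were listed in both myosin nodes and in a single heart extract node.
TRBV14 TRBJ2-1: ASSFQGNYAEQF
TRBV14 TRBJ1-1: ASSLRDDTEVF
TRBV14 TRBJ1-4: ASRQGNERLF
TRBV19 TRBJ2-3: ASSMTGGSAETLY

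The last 8 are the members with the most reads in the infarcted hearts.
TRBV19 TRBJ2-3: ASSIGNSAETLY
TRBV19 TRBJ2-7: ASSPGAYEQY
TRBV17 TRBJ2-1: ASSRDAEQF
TRBV13-1 TRBJ1-2: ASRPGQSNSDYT
TRBV5 TRBJ1-2: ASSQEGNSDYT
TRBV5 TRBJ2-5: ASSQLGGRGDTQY
TRBV20 TRBJ1-2: GARQVANSDYT
TRBV5 TRBJ2-3: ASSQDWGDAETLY

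Most members met the rule at its edge. Of the 2342, 1996 (85.2%) were listed in exactly 3 antigen nodes, 321 (13.7%) in 4 and 25 (1.07%) in all 5. The more antigen nodes listed a CDR3, the less often it was unlisted after adjuvant: members were 22.7% of all CDR3s in exactly 3 antigen nodes, 8.83% of those in 4 and 2.06% of those in 5. Just inside the rule, 609 of the 1996 members in 3 nodes (30.5%) had a lowest entry of 2 reads, and 968 (48.5%) one under 10 reads. Just outside it, 13887 CDR3s were in 2 antigen nodes and no adjuvant node. A further 3480 were in at least 3 antigen nodes and in a single adjuvant node, where 307 of them (8.82%) had 2 reads and 596 (17.1%) had under 10.

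The size of the set moved with the libraries that define it. Leaving out an antigen library, with at least 3 of the other 4 still required, left 812 members without myosin node 1, 858 without myosin node 2, 1426 without extract node 1, 908 without extract node 2 and 1718 without extract node 3. Leaving out an adjuvant library raised the number to 2840, 3582, 2699 and 3727 for adjuvant nodes 1, 2, 3 and 4. When an antigen entry counted only from 10 reads, 1318 members remained.

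Members were rare in every antigen node. Their 7397 entries there had a median of 53 reads, against 105 reads for the 11288 CDR3s in at least 3 antigen nodes and at least 1 adjuvant node, called the shared set below. The highest entry was 4450 reads, and no member exceeded 0.0567% of the reads of an antigen node. Entries under 10 reads made up 22.5% of the total. Together the members held 2.20% and 2.33% of the reads of myosin nodes 1 and 2, and 2.89%, 2.42% and 3.07% of those of extract nodes 1, 2 and 3. Extract nodes listed fewer members (1175, 1739 and 829) than myosin nodes (1852 and 1802). The members thus took a higher read share in the extract nodes with fewer of them present. This was not particular to members. The shared set held 22.0% and 22.7% of reads in myosin nodes 1 and 2, and 24.8%, 22.5% and 25.0% in extract nodes 1, 2 and 3. Extract nodes 1 and 3 also had the fewest distinct CDR3s among antigen nodes, 52706 and 38437.

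The same rule turned round gave a smaller set. At least 3 of the 4 adjuvant nodes and none of the 5 antigen nodes listed 630 CDR3s, 8.54% of the 7373 in at least 3 adjuvant nodes. This mirror set serves below as a set of recurrent CDR3s chosen without an antigen. The directions are not equally strict, since 3 of 5 and 3 of 4 nodes, and absence from 4 or from 5, are different demands.

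**Figure D1:**
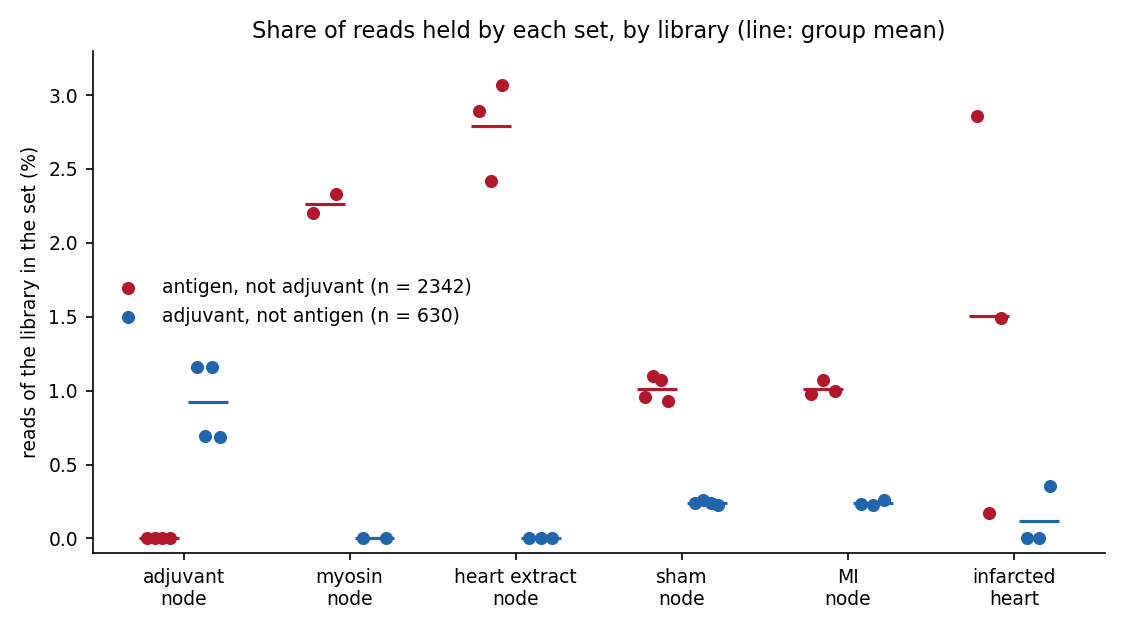
Percentage of each library's reads held by the 2342 CDR3s in at least 3 antigen nodes and no adjuvant node (red) and by the 630 CDR3s of the mirror set (blue); each point is a library and the line is the group mean. The zeros in axillary nodes follow from the rules, sham and MI nodes sit together at 1.01% for the red set, and the 3 hearts run from 0.171% to 2.86%.

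The largest combination within the set joined the richest antigen libraries. This combination, myosin nodes 1 and 2 with extract node 2, held 640 members (27.3%), and these 3 libraries listed 97629, 91621 and 87506 distinct CDR3s, the most among antigen nodes. Myosin 1, myosin 2 and extract 1 followed with 255 members, then myosin 1 with extract 1 and 2 (248) and myosin 2 with extract 1 and 2 (229). Both myosin nodes with a single extract node held 1078 members (46.0%), 1 myosin node with 2 extract nodes 858 (36.6%), and both myosin nodes with 2 extract nodes 269 (11.5%). With 2 myosin nodes in the study, 3 listings always include extract, so no member could be restricted to myosin. Extract alone was possible, and 60 members (2.56%) showed it.

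Among members in exactly 3 nodes, 3.01% were in the 3 extract nodes alone, against 1.77% in the shared set. The leading combination took 32.1% of them, against 35.6% in the shared set. The order of combinations thus resembled that of CDR3s that adjuvant nodes also listed, with a somewhat larger extract-only portion whose difference was not tested.

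**Figure D2:**
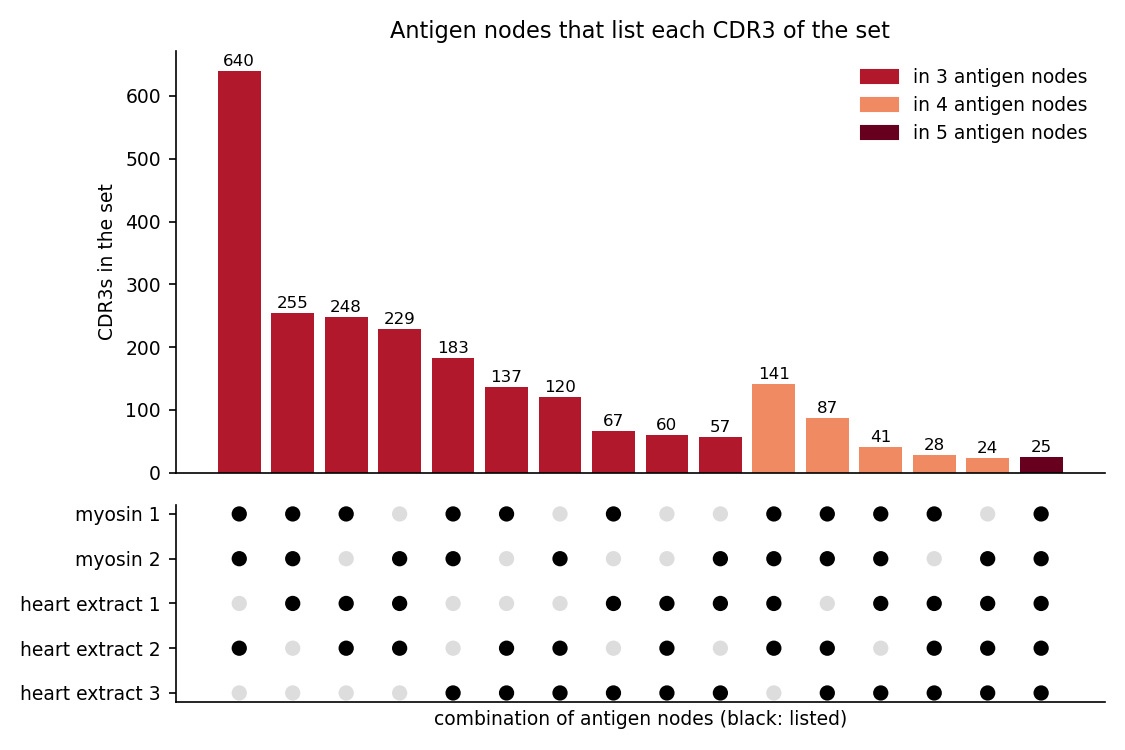
Number of members (bars) by the antigen nodes that list them (black dots), grouped by 3, 4 or 5 listing nodes. The leading bar is myosin 1, myosin 2 and heart extract 2 with 640 CDR3s, and the 3 extract nodes without myosin hold 60.

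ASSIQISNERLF had the highest mean share among members in all 5 antigen nodes. It had 733 and 1264 reads in myosin nodes and 682, 374 and 536 in extract nodes, with TRBV19 as main segment in 10 of the 10 libraries that listed it. It was also in all 3 MI nodes (160, 855 and 1737 reads) and in sham nodes 1 and 3 (1584 and 815 reads), and at 0 in sham nodes 2 and 4 and every heart. Read levels of sham and MI nodes overlapped. The receptor was therefore recurrent outside the antigen nodes too.

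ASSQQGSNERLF, with TRBV5 as main segment, was listed in all 12 node libraries other than the adjuvant ones. Its reads were 442 and 258 in myosin nodes, 1262, 731 and 5 in extract nodes, 229, 262 and 64 in MI nodes and 329, 264, 103 and 489 in sham nodes. TRBV5 was its main segment in 6 of the 12 libraries, so the letters recur more widely than a single V-CDR3 chain. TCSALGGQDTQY showed a fixed segment instead: TRBV1 was its main segment in 10 of 10 libraries, with 51 and 49 reads in myosin nodes and 247, 56 and 552 in extract nodes. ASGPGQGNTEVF was the loosest of the 10, with TRBV19 as main segment in 2 of 11 libraries.

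The extract-only members with the highest shares differed in how much their chains agreed. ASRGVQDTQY had 294, 41 and 2841 reads in extract nodes 1, 2 and 3 and none in either myosin node. Its main segment TRBV14 was the main one in 1 of 7 libraries, so its most abundant chain was not the leading one in the other libraries. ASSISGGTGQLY was more even, with 543, 511 and 646 reads, and TRBV19 led in all 5 libraries that listed it, MI nodes 1 and 2 (2 and 67 reads) among them. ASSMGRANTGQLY (754, 6 and 656 reads) also kept TRBV19 in each of its 3 libraries, and was in no mediastinal node. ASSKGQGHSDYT had 931, 617 and 221 reads, with TRBV19 in 2 of 3 libraries, and was likewise in no mediastinal node or heart.

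Among members in both myosin nodes and a single extract node, the reads were often uneven. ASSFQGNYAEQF had 1984 and 15 reads in the myosin nodes and 661 in extract node 2, with TRBV14 leading in 2 of 6 libraries. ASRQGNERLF had 218 and 1338 reads in myosin nodes and 200 in extract node 2. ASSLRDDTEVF was high in both myosin nodes (1004 and 779 reads) and at 176 in extract node 2, but TRBV14 led in 3 of 7 libraries. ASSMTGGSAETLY, at 1177 and 375 reads in myosin nodes and 2 in extract node 3, kept TRBV19 in 7 of 7 libraries.

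The rule shapes any contrast of the antigens, since it used these nodes and a member had to be in at least 1 extract node. The counts of calls for heart extract against myosin are therefore given as a description. In the edgeR quasi-likelihood fit of all 16 node libraries, 2284 members passed the filter of a read in 3 libraries and 20 reads in all. None of them, and none of the 121771 CDR3s tested (0.0%), had a Benjamini-Hochberg adjusted p under 0.05 for heart extract against myosin. At an unadjusted p under 0.05 there were 3 members and 5583 CDR3s in all. DESeq2 called 11 members (0.482%), beside 9.28% of all CDR3s tested. It called 10 of them higher with extract, beside 4.84% of all, and 1 lower, beside 4.44%. The median log2 difference was -0.10 for members and 0 for all CDR3s tested. Nothing about the antigens is read from these counts.

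TRBV5 (18.4% of members), TRBV19 (13.2%), TRBV4 (11.2%), TRBV13-2 (9.39%), TRBV13-1 (8.54%) and TRBV1 (7.73%) were the most frequent main V segments. TRBJ2-7 (14.8%), TRBJ1-4 (12.6%), TRBJ1-1 (12.5%) and TRBJ2-5 (12.2%) led among J segments. The mirror set also had TRBV5 (21.0%) and TRBV19 (12.4%) in front, then TRBV13-1 (9.37%), TRBV13-2 (9.21%) and TRBV4 (8.41%), and TRBJ2-7 at 14.8%. In the shared set TRBV5 stood at 22.5% and TRBV19 at 14.9%. TRBV1 stood at 7.14% in the mirror set and 5.48% in the shared set.

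Reads were spread differently from CDR3s. The 234 members with the highest mean read share, 10% of the set, held 38.9% of its reads in antigen nodes. Among these, TRBV19 made up 42.3% and TRBV14 26.1%, while no CDR3 used TRBV13-1, TRBV13-2 or TRBV20. The same 10% of the mirror set also favoured TRBV19 (30.2%) and TRBV14 (22.2%), as did that of the shared set (31.6% and 24.1%). High reads on these segments were thus common to the 3 sets of recurrent CDR3s.

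Over the 5 antigen nodes, TRBV19 took 24.8% ± 3.26 of the reads in members (SD, n = 5), and 24.2% ± 0.945 of all reads of those libraries. In the sham nodes TRBV19 took 24.8% ± 4.33 of member reads (n = 4), and in the MI nodes 24.4% ± 1.82 (n = 3). The members' reads therefore used TRBV19 about as much as the whole libraries did, in both kinds of node. TRBV5 and TRBV14 followed in the antigen nodes, with 19.5% and 14.5% of member reads.

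A stricter look asked for the same V, J and CDR3 together. For 1230 members (52.5%) at least 1 V-J combination was itself listed in 3 or more antigen nodes, 1365 combinations in all. The share was 50.2% in the mirror set (316 CDR3s) and 63.3% in the shared set (7140). TRBV13-2 led these combinations with 19.0%, ahead of TRBV5 (17.3%), TRBV1 (13.0%), TRBV13-1 (10.3%) and TRBV19 (9.01%), while TRBV14 had 1.25%. In the mirror and shared sets TRBV13-2 had 17.8% and 17.0%, behind TRBV5 (20.5% and 21.3%), and TRBV14 had 1.46% and 1.64%. The segments with most reads per CDR3 were therefore not those with the most repeated chains.

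**Figure D3:**
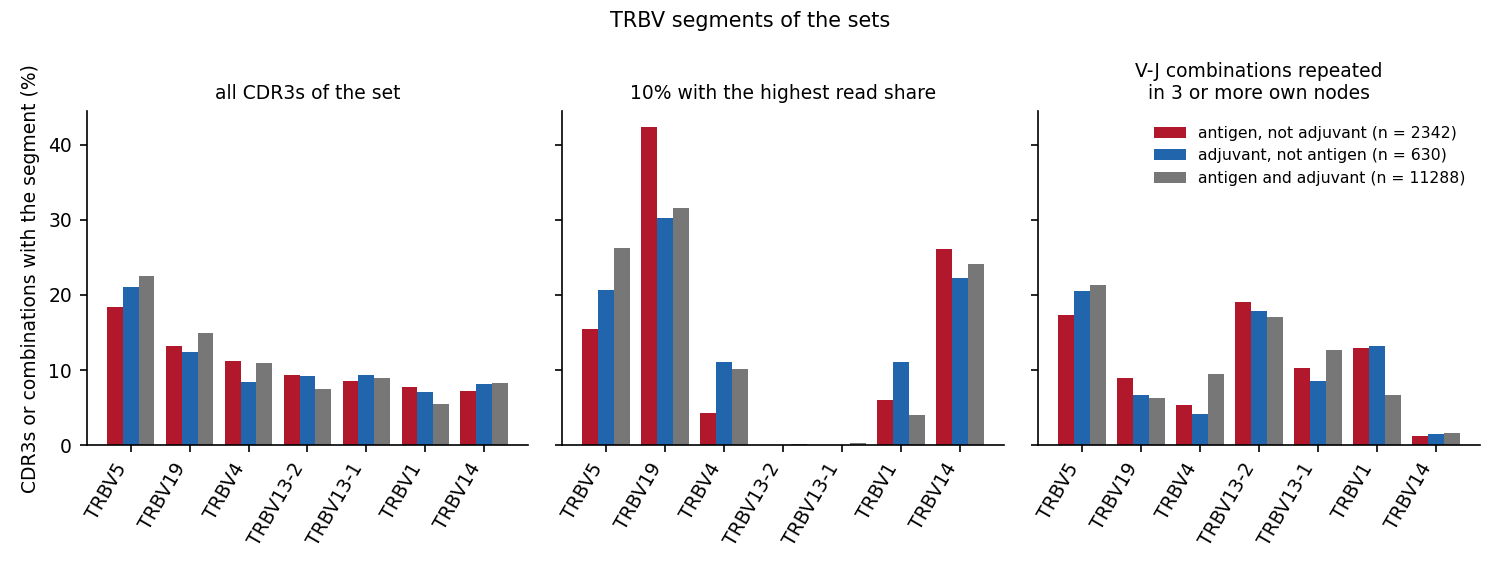
Percentage of CDR3s (left, all of each set; middle, the 10% with the highest read share) or of repeated V-J combinations (right) that use each of 7 TRBV segments, for members (red), mirror set (blue) and shared set (grey). TRBV19 and TRBV14 are taller in the middle panel in each set, and TRBV13-2 leads the members in the right panel with 19.0%.

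The members were short, as were the other recurrent CDR3s. Their mean length was 11.8 ± 1.22 residues (SD over CDR3s, range 7 to 15), against 11.9 in the mirror set, 11.6 in the shared set and 12.3 in the 230849 CDR3s of a single antigen node and no adjuvant node. Length 12 was the most frequent, at 34.8% of members. CDR3s of 15 or more residues made up 0.384% of members and 5.5% of CDR3s of a single antigen node. Members had several V segments in 63.7% of cases, against 61.7% in the mirror set, 13.7% in single-node CDR3s and 73.8% in the shared set. The count pools all listing nodes, at least 3 for a member and 1 for a single-node CDR3. Entries of the shared set also had more reads, a median of 105 against 53. These shares are therefore not like for like. In the median member 91.5% of antigen-node reads were on the main V. All listing antigen nodes had the same main V for 1042 members (44.5%), against 45.4% in the mirror set and 38.1% in the shared set. This share also depends on how many nodes list a CDR3.

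Near-identical members formed small families. Of the 2342, 688 (29.4%) differed from another member of equal length by 1 residue, in 419 pairs, and these joined into 291 groups. Per 1000000 possible pairs there were 153, beside 141 in the mirror set and 571 in the shared set. The 3 largest groups had 7, 6 and 6 members, each with a single J segment. They are printed to show which positions varied, apart from 1 TRBV4 member of the TRBJ2-5 group.
TRBV14 TRBJ1-4: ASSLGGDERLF
TRBV14 TRBJ1-4: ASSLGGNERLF
TRBV29 TRBJ1-4: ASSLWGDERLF
TRBV31 TRBJ1-4: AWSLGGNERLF
TRBV31 TRBJ1-4: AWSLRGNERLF
TRBV31 TRBJ1-4: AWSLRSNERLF
TRBV31 TRBJ1-4: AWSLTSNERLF
TRBV19 TRBJ2-5: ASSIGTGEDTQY
TRBV5 TRBJ2-5: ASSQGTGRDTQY
TRBV19 TRBJ2-5: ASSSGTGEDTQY
TRBV15 TRBJ2-5: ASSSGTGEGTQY
TRBV19 TRBJ2-5: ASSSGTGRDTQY
TRBV5 TRBJ2-3: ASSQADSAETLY
TRBV5 TRBJ2-3: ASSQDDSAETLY
TRBV2 TRBJ2-3: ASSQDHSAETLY
TRBV5 TRBJ2-3: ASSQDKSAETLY
TRBV5 TRBJ2-3: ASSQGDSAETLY
TRBV14 TRBJ2-3: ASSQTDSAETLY

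The TRBJ1-4 group mixed V segments, and its 4 TRBV31 members kept that segment in 8 of 8, 7 of 7, 8 of 8 and 6 of 6 listing libraries. Their reads were low, 2 to 360 in the antigen nodes that listed them. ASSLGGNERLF was the highest of the group, at 1437 reads in extract node 1, 93 in extract node 2 and 5 in myosin node 2. In the TRBJ2-5 group, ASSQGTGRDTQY was listed in all 7 mediastinal nodes (37 to 209 reads) and at 174 and 283 reads in myosin nodes and 284, 166 and 0 in extract nodes. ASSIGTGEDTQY of the same group reached 1592 reads in extract node 1. The groups thus held both widespread and sparsely listed members.

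Members were widely listed in operated mice, sham or MI, that were not immunised. Of the 2342, 2156 (92.1%) were in at least 1 of the 7 mediastinal nodes, 1953 (83.4%) in an MI node and 1835 (78.4%) in a sham node. All 7 nodes listed 48 members (2.05%), and 186 (7.94%) were in none. In the mirror set 12.4% were in no mediastinal node and 2.38% in all 7. In the shared set these shares were 0.753% and 19.8%, and of the 3480 CDR3s just outside the rule, with a single adjuvant node, 1.87% were in none. The share in all 7 was close to that of the mirror set, while fewer members than mirror CDR3s were in none. The set was less public than the shared set. That is partly set by definition, since shared CDR3s had to be in an adjuvant node and members in none. Members in more mediastinal nodes also had more reads in the antigen nodes, from a median of 28.8 for those in none to 77.6 for those in all 7.

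**Figure D4:**
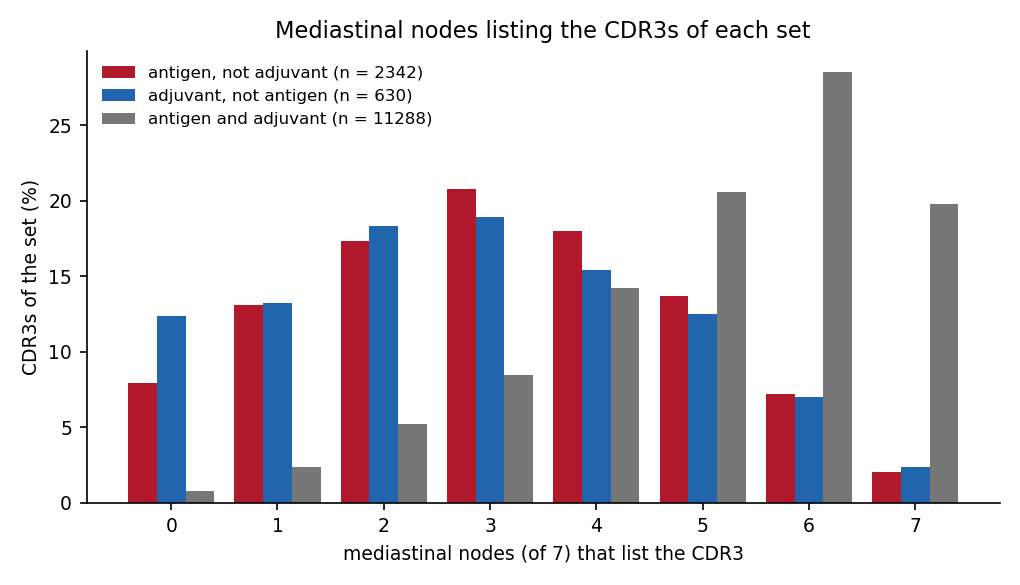
Percentage of each set (y) listed in 0 to 7 mediastinal nodes (x), for members (red), the mirror set (blue) and the shared set (grey). Members and mirror set peak in the middle of the range, while the shared set peaks at 6 nodes with 28.5% and has 19.8% in all 7.

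Sham nodes 1, 2, 3 and 4 listed 800, 792, 1420 and 347 members, which is 34.2%, 33.8%, 60.6% and 14.8% of the set. MI nodes 1, 2 and 3 listed 1346, 1477 and 1027, or 57.5%, 63.1% and 43.9%. The means were 35.9% ± 18.8 (SD, n = 4) and 54.8% ± 9.88 (n = 3), and the groups overlapped, sham node 3 lying between the MI nodes. The order of the 7 libraries followed their number of distinct CDR3s, apart from a near tie of sham nodes 1 and 2. The mirror set behaved alike, with 34.9%, 31.7%, 54.6% and 15.9% in sham nodes and 52.9%, 56.5% and 42.7% in MI nodes.

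Relative to what each library listed, the groups did not part. Members made up 0.743%, 0.726%, 0.669% and 0.656% of the distinct CDR3s of sham nodes 1 to 4, and 0.670%, 0.640% and 0.729% of those of MI nodes 1 to 3. The means were 0.699% ± 0.0423 and 0.680% ± 0.0452, with overlapping ranges. Of reads, the members took 0.954%, 1.10%, 1.07% and 0.932% in sham nodes, and 0.974%, 1.07% and 0.996% in MI nodes. Both means were 1.01% (SD 0.0824 and 0.0501), and the MI minus sham difference was -0.000387 percentage points. Leaving out each mediastinal library in turn moved that difference between -0.0286 and 0.0279 points, on either side of 0.

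**Figure D5:**
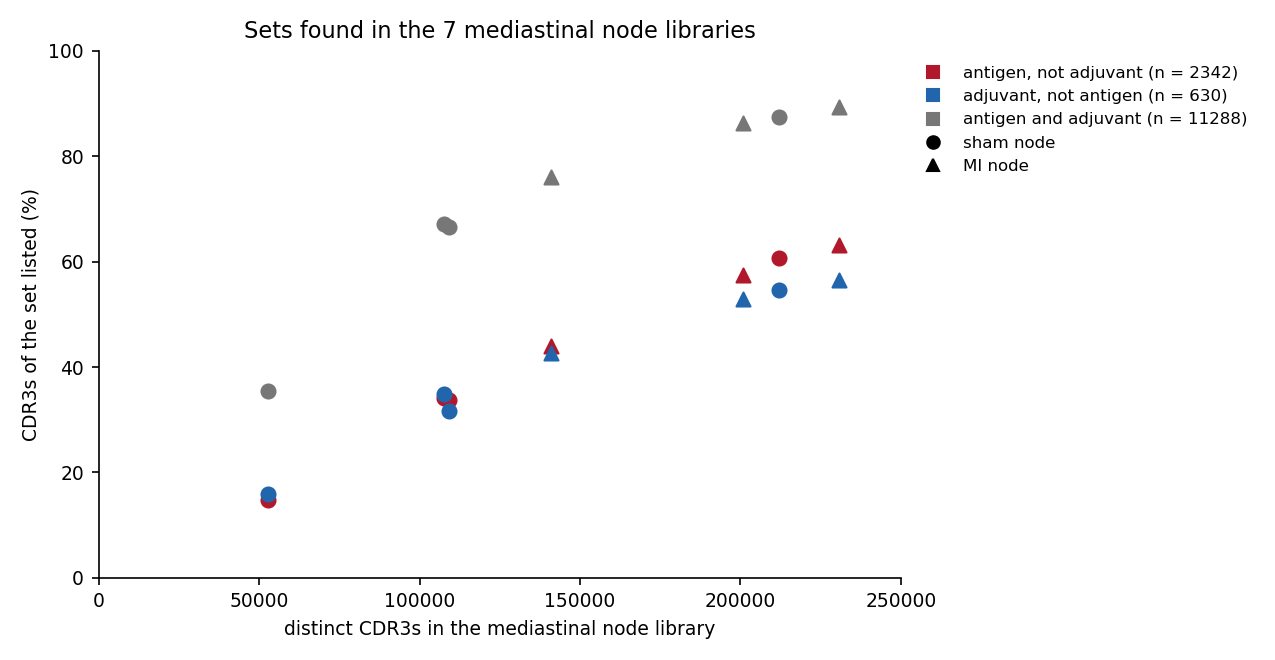
Percentage of each set listed in a mediastinal node library (y) against the number of distinct CDR3s of that library (x); circles are the 4 sham nodes, triangles the 3 MI nodes, colours the members (red), mirror set (blue) and shared set (grey). Within each colour, sham and MI nodes lie along a common rising course, and members go from 14.8% in sham node 4 to 63.1% in MI node 2.

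No member passed the test between MI and sham nodes. In the same edgeR fit, 0 of the 2284 members and 0.0% of the 121771 CDR3s tested had a Benjamini-Hochberg adjusted p under 0.05. At an unadjusted p under 0.05 there were 160 members and 11900 CDR3s. DESeq2 called 51 members (2.23%), beside 3.78% of all CDR3s tested. It called 35 of them higher after MI, beside 2.57% of all, and 16 lower, beside 1.21%. The median log2 difference was 0.20 in members and 0.33 in all CDR3s tested, a gap that was not tested. It was 0.41 and 0.58 with TMM factors and 0.20 and 0.21 with at least 100 reads. Without MI node 1 or 2 both medians were 0. Every member met the 3-library filter through the antigen nodes that the rule used, even a member in no mediastinal node. The adjuvant zeros fixed by the rule also entered the shared spread estimate. The members' shares and medians are therefore not like for like with those of all CDR3s tested. The members of smallest edgeR p, with an adjusted p of 0.455, were unlisted in all 4 sham nodes: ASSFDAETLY with 356 reads in MI node 2, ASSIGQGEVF with 272 and 178 in MI nodes 1 and 3, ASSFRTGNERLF with 887 in MI node 3, and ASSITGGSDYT with 158 and 323 in MI nodes 2 and 3. None was in all 3 MI nodes, and 2 of the 4 kept TRBV19 in each of 5 listing libraries. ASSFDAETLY had a log2 difference of 9.87 with an SE of 3.77 in the edgeR fit and was not called. Large differences of single CDR3s could thus go uncalled, and 0 calls do not show equal levels.

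Presence leaned towards MI nodes, in the other sets as well. MI nodes but no sham node listed 321 members (13.7%), and sham nodes but no MI node 203 (8.67%). In the mirror set these shares were 12.5% and 9.84%, in the shared set 3.62% and 1.88%, and among all 749593 CDR3s of the mediastinal nodes 46.5% and 37.4%. All 3 MI nodes listed 573 members, 37 of them (1.58% of the set) in no sham node. That share was 2.06% in the mirror set, 0.62% in the shared set and 0.332% among all CDR3s of the mediastinal nodes. All 4 sham nodes listed 74 members, and 0 of these lacked an MI node. The mirror set had 0.0% there, the shared set 0.0532% and all CDR3s of the mediastinal nodes 0.008%. Presence in all 4 sham nodes is a stricter demand than in all 3 MI nodes. Shares of the 3 sets include CDR3s in no mediastinal node. The MI libraries were on the whole the richer ones, and what that does to these counts was not tested.

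The members with the highest mean share over the 7 mediastinal nodes were, beside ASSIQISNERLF, mostly high in single libraries. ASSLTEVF had 7820 reads in sham node 2 and 114, 323 and 716 in the other sham nodes, 191, 164 and 61 in MI nodes, 4 and 0 in myosin nodes and 4450, 171 and 0 in extract nodes. Its main segment TRBV14 led in 4 of 10 libraries. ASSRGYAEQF had 4769 reads in sham node 4, 9, 0 and 29 in the other sham nodes and 0, 62 and 4 in MI nodes, with TRBV4 leading in 1 of 9 libraries. Its antigen-node reads were 2 and 98 with myosin and 0, 255 and 817 with extract. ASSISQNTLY was steadier, with 328, 500, 94 and 1227 reads in sham nodes, 154, 421 and 1524 in MI nodes, 887 and 465 in myosin nodes and 1177, 471 and 0 in extract nodes. Its mean share was 0.00736% in antigen, 0.00626% in sham and 0.00789% in MI nodes, with TRBV19 in 10 of 11 libraries. For none of the 3 did MI and sham nodes part without overlap.

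The 186 members in no mediastinal node were led by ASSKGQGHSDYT, given above, and 3 others. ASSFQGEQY had 113 and 780 reads in myosin nodes and 2364 in extract node 3. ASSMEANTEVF had 268 and 979 in myosin nodes and 660 in extract node 1, with TRBV19 in all 3 libraries. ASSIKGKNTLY, also TRBV19 in all 3, had 126 reads in myosin node 2, 224 in extract node 2 and 1381 in extract node 3.

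The main V of a recurrent CDR3 often changed between nodes, in members as in the other sets. The main V of a member in the antigen nodes was also the main V in 2032 of 3359 listings in sham nodes (60.5%) and in 2400 of 3850 in MI nodes (62.3%). In the hearts it was so in 16 of 37 listings. The mirror set had like shares, 61.2% in sham and 62.0% in MI nodes, and the shared set 57.0% and 59.1%. The other listings carried mostly another chain.

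In the infarcted hearts, 37 members (1.58%) were listed, 8 in heart 1, 12 in heart 2 and 17 in heart 3, and none in more than 1 heart. For comparison, 8 of the 630 mirror CDR3s (1.27%), 443 of the 11288 shared CDR3s (3.92%) and 3714 of all 1074236 node CDR3s (0.346%) were listed in a heart. Members took 2.86%, 0.171% and 1.49% of the reads of hearts 1, 2 and 3. Hearts listed 2898, 4153 and 4795 distinct CDR3s from 5000 cells each, which limits what absence from a heart can show. An MI node listed 36 of the 37, all 3 MI nodes 19, and a sham node 33.

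The read shares in hearts came from a few CDR3s. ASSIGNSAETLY held 56661 reads of heart 1, which is 2.33% (95% Wilson interval 2.32 to 2.35, counting error only) and rank 3 in that heart, leaving 0.527% to the other 7 members there. It was one of the 60 extract-only members, with 397, 257 and 324 reads in extract nodes 1, 2 and 3 and 0 in both myosin nodes. In mediastinal nodes it had 361, 126 and 37 reads after MI and 259, 0, 56 and 0 after sham, and TRBV19 led in all 9 listing libraries. This chain was thus present in all 3 MI nodes, in 2 of 4 sham nodes and in heart 1. Its level in MI and sham nodes overlapped.

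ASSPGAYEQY held 44403 reads of heart 3 (0.866%), rank 10 there. Its main segment TRBV19 led in 2 of 7 libraries, and the node counts were 347 and 57 in myosin nodes, 23 in extract node 2, 20 and 51 in MI nodes 2 and 3 and 7 in sham node 3. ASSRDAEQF (18562 reads in heart 3) and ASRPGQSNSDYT (9881 in heart 1) were on TRBV19 in the heart but mainly on TRBV17 and TRBV13-1 in the antigen nodes, so their leading chains in heart and antigen nodes differed. GARQVANSDYT (3558 in heart 3) kept TRBV20 in each of 11 libraries, 4 antigen nodes among them at 65, 21, 38 and 91 reads. In heart 2 the highest was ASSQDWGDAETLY, with 3399 reads there, 1417 in MI node 2, 412 in sham node 2 and 2 to 61 in the antigen nodes that listed it.

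Across the 37, 16 had the same main V in the heart and the antigen nodes. Of the 12 with more than 100 heart reads, 7 did. TRBV19 was the main antigen-node V of 6 of the 37 (16.2%), and 35 were in nodes of both antigens against 2 with extract alone. The MI node that bears the heart's own number listed 6 of 8 members for heart 1, 12 of 12 for heart 2 and 12 of 17 for heart 3. MI node 2, the richest library, listed 3, 12 and 16.

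Between heart and MI node, single members could hardly be compared. In an edgeR fit of these 6 libraries, 580 members passed the filter, and 558 had a Benjamini-Hochberg adjusted p under 0.05, 557 lower and 1 higher in the heart. The background was 96.1% of the 24255 CDR3s tested, 95.9% lower and 0.239% higher, so the members' share was that of the whole table. Of the 580, 549 had no heart read and entered only by being in all 3 MI nodes, and all 549 were called lower. Among the 31 with a heart read, 8 were called lower. The 1 called higher, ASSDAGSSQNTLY, named after its values were seen, had 895 reads in heart 2, 0 in the other hearts and 13, 31 and 3 in MI nodes (log2 difference 5.14, SE 2.27, adjusted p = 0.0406). It rested on a single heart and was not called by DESeq2, which called 549 members lower, beside 94.7% of all CDR3s, and 0 higher, beside 0.0165%.

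Leaving out MI node 1, 2 or 3 left 24, 21 or 23 members in the heart fit, and 0 calls each time. The members of smallest p, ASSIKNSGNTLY (420, 232 and 369 reads in MI nodes), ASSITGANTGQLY (310, 193 and 397), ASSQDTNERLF (310, 288 and 227), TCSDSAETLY (280, 260 and 221), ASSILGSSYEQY (590, 272 and 344) and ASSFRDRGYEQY (180, 215 and 519), had no heart read. Their mean share in MI nodes was 0.00306% to 0.00493%, below 0.02%, which is 1 of 5000 sorted heart cells. A heart of this size could thus lack them at an unchanged frequency, and no fold is given. They entered the fit only through being in all 3 MI nodes, so their calls support no difference between heart and node.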

How the data were processed

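The deposited tables list, per the labels, a read count for every CDR3 amino acid sequence with its TRBV and TRBJ, amplified from total RNA by multiplex PCR with V primers. The values are raw counts. For the aligner, error correction and segment reference, nothing is stated in the labels. Molecular identifiers are not mentioned, so PCR reads are not independent molecules and intervals cover counting error only.

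Reads were summed per CDR3. The members and the lists were chosen with earlier results of these data known. Named CDR3s followed a rule of highest mean share within each pattern of nodes, most summed reads in hearts, smallest p within each comparison and the 3 largest groups. The 16 node libraries in 5 groups shared a fit with edgeR 4.0.16 (glmQLFit, robust, legacy settings, library total as offset, glmQLFTest) in R 4.3.3, and 6 libraries entered the heart fit. CDR3s needed a read in 3 libraries and 20 reads. DESeq2 1.42.0 (poscounts) was an alternative. The edgeR p-values were Benjamini-Hochberg adjusted over all CDR3s tested, at 0.05. DESeq2 applied its default filtering before adjustment, so its adjustment can cover fewer CDR3s than those tested. The fits were also run on simulated counts, with the same mean share in every library apart from set changes. These counts lacked the zeros fixed by the rule, so nothing about the members is read from them. Sample numbers were checked for pairing by the correlation of deviations from group means over CDR3s. Same-numbered heart and MI node libraries gave 0.0257, 0.0242 and 0.0315, and differently numbered ones -0.0184 to -0.00376. Same-numbered libraries of the other comparisons gave -0.0261 to 0.000854. All these values were small, and the numbers were not taken as pairs, although each heart correlated best with the MI node of its own number. Of the 580 members in the heart fit, 549 had no heart read, so small values cannot settle whether libraries pair.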

Additional observations from a re-analysis of the deposited data

Results flagged for a closer look

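Over the 4 sham nodes, 67 measures were tested (named members and summaries of the set), and 20 held 1 library far from the other 3. The cut-off flags about 1 in 20 only for normally distributed values. A CDR3 listed in a single sham node is always flagged, whatever its reads, so the 20 are not read as an excess. Most of these members were listed in few sham nodes, so a single entry stood out from zeros. The values below are reads in the library that stood apart.

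Sham node 3 stood apart for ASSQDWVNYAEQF (53 reads), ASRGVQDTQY (67), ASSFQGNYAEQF (205), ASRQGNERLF (223), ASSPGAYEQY (7) and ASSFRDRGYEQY (1329). In the group of similar TRBJ2-3 sequences it did so for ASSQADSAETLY (69), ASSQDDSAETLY (177), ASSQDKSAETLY (31) and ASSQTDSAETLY (48). It was the sham library with the most distinct CDR3s, 212131. Sham node 4 stood apart for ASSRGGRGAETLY (104), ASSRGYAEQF (4769) and the TRBV4 member of the TRBJ2-5 group (2). Sham node 1 did so for GARQVANSDYT (117), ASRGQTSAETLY (471) and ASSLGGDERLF (102). Sham node 2 did so for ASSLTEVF (7820), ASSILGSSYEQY (56), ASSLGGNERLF (5) and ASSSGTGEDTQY (171). No explanation was tested.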

How the results depend on the processing

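The numbers in the set were moved most by its own definition. An antigen entry of at least 10 reads left 1318 members. Leaving out each axillary library in turn gave 812 to 3727. Ignoring entries under 10 reads everywhere gave 1656, of which 1318 were members. Thinning gave 2339, of which 2335 were members. CDR3 with V and J as identity gave 2312 combinations of 2035 distinct CDR3s, of which 1230 were members, so the content changed more than the number.

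For MI against sham and for extract against myosin, edgeR called 0 members in each setting. The settings were TMM factors, other read filters, the replicate block and each library left out. DESeq2 called 51 and 11, and the cause of that difference was not tested. The extract against myosin counts remain a description, since the rule used these nodes. For heart against MI node, the replicate block gave 0 calls in place of 558, and leaving out each library gave 0 to 564. The fall to 0 without an MI node follows from the filter, which then admits 21 to 24 members. The sample numbers were not taken as pairs because the correlations were small, which cannot settle the question. Each heart correlated best with the MI node of its own number, a hint from the data. Other alternatives gave 386 (100 reads) to 564 (TMM). The single member called higher was lost with TMM, 100 reads and DESeq2. The MI minus sham difference in listed members, 18.9 points, was 11.9 to 27.2 without each library. Depth limits entries of 2 reads, and 5000 cells limit the hearts.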

Other observations

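TRBV12-1, TRBV12-2, TRBV15, TRBV16 and TRBV26 are largely lost from BALB/c repertoires through endogenous retroviral superantigens. They were the main V of 36 members (1.54%). The mirror set held 14 (2.22%), the shared set 108 (0.957%) and CDR3s of a single antigen node 1.53%. The TRBV13 family made up 22.0% of members, 21.7% of the mirror set and 20.2% of the shared set.

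Short glycine stretches of the kind the D segments encode were as frequent in members as elsewhere. GG was in 22.8% of members, 24.0% of the mirror set, 23.9% of the shared set and 23.0% of CDR3s of a single antigen node. GTG was in 6.62%, 7.3%, 5.78% and 5.94% of these sets, GQG in 3.89%, 4.13%, 3.95% and 3.88%, and WG in 5.47%, 5.08%, 5.32% and 6.81%. No test was run on these shares.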
